A study of Mus musculus with 10 samples.

Results

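Glycolysis and hypoxia-response genes were followed in bone marrow-derived macrophages of wild-type (WT) mice and of mice lacking WASp (WKO), an activator of branched actin assembly in blood cells. The members are 33 genes chosen by name: 17 of glucose uptake, glycolysis and lactate export, and 16 other genes linked to the hypoxia-inducible factors (HIF). Each had 1 row in the table, and 32 reached a mean normalized read count of 10 over the 10 libraries, out of 12455 genes that did so among 57010 rows. Adm, which encodes the peptide adrenomedullin, did not reach it, so 17 glycolysis genes and 15 other genes were tested. The filter used the mean over all groups.

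Marrow flushed from the femurs was grown for 7 days in RPMI with 20 ng/mL macrophage colony-stimulating factor, for WT and WKO cells alike. There were 2 WT unconfined, 2 WKO unconfined, 3 WT confined and 3 WKO confined libraries. Confined cells spent 1 h under a ceiling of silicone (PDMS) micropillars that left 3 µm of height. Unconfined cells are labelled as controls, and the labels do not say whether they were held in the same device. Nor do they give the WKO allele, the age of the mice, or whether replicate libraries came from different mice, so p-values may measure technical spread only. Each library was made from 5 ng of total RNA with an mRNA kit.

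Glycolysis splits glucose into pyruvate in the cytosol and yields ATP without oxygen. Activated macrophages rely on it heavily and export the resulting lactate. HIF-1, a dimer of HIF-1α and ARNT, is destroyed when oxygen is plentiful, because prolyl hydroxylases mark HIF-1α for degradation. When it persists it binds the hypoxia response element, whose core is ACGTG, and raises transcription of glucose transporters, most glycolytic enzymes, Vegfa and other genes.

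The promoters of 4 members are shown. These members were picked because they carry this core and had all or nearly all WKO libraries below the WT libraries. Picked on both, they cannot show a link between core and level. They are Slc2a1, the glucose transporter GLUT1 (chr4:119108495-119108713, plus strand), Slc16a3, the lactate exporter MCT4 (chr11:120948817-120949052, plus strand), P4ha1, a catalytic subunit of collagen prolyl 4-hydroxylase (chr10:59323046-59323295, plus strand), and Pgk1, phosphoglycerate kinase (chrX:106186850-106187099, plus strand). Sequences and positions are RefSeq promoter windows on GRCm38.p6, 5′ to 3′, cut off where annotated exons begin. Capitals mark ACGTG, or CACGT where it lies on the other strand.
Slc2a1: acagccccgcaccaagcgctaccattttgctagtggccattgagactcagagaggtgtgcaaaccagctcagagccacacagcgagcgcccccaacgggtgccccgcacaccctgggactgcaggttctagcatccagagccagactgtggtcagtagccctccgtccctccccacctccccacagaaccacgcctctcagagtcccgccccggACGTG
Slc16a3: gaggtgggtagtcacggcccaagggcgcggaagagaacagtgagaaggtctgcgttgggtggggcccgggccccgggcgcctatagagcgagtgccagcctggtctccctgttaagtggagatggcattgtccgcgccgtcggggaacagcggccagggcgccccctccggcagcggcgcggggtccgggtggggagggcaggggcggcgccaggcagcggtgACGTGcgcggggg
P4ha1: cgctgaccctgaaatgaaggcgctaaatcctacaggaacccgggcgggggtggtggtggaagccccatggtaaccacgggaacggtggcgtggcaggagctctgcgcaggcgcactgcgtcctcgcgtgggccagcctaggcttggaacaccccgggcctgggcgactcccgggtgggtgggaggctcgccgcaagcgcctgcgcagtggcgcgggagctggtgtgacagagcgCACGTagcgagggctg
Pgk1: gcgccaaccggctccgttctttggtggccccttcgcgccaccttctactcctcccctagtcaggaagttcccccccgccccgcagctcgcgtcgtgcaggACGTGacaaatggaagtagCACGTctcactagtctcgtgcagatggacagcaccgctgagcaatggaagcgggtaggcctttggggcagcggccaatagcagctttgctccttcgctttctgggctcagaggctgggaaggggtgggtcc
In Slc2a1 the core began 36 bases before the RefSeq start, and GENCODE M21 counts the last 3 bases printed as exon. Slc16a3 has a core 27 bases before the start and another, not printed, at 14. The core of P4ha1 began 16 bases before the start, on the other strand. Pgk1 has one on each strand, at 150 and 131 bases before the start.

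Windows from 250 bases before to 50 after a start were found for 31 of the 33 members, 45 windows in all. ACGTG on either strand was present in 25 of them (55.6%), belonging to 22 genes, against 19.6% of all 32851 windows and 25.8% of the 11883 windows of tested genes. GCGTG, the other common form of the core, was present in 53.3% of the members' windows and in 50.2% of the tested genes' windows. Both strands were searched, and the motifs differ in their first letter, so that they cannot start at the same base of 1 strand. The members' windows had a median GC content of 65.0%, against 60.7% for tested genes. By gene, 22 of 31 members carried ACGTG, against 2781 of 9319 tested genes with a window. Windows of a gene can overlap and hold the same site, as in Aldoa. Because the list was partly drawn up from genes linked to HIF, an excess of its core may follow from that choice. A match describes letters only. Pfkp and Eno1, which are described below, had no ACGTG in any window, yet had all WKO libraries below all WT libraries. Aldoa, Hk1 and Egln1, not printed, also carried it and had all WKO libraries below all WT libraries. Vegfa, Pfkfb3, Hif1a, Mxi1, Bnip3, Ankrd37, Egln3 and Ero1a carried it without such an order. So did Gapdh, Higd1a, Hk2, Ldha, P4ha2, Pgam1 and Pkm, and P4ha1 printed above. A link between the core and the levels was not tested.

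Library depth was 13295701 to 19329908 reads, at which 3 reads correspond to a normalized read count of 2.35 to 3.59. The labels were checked by Was, which encodes WASp: its normalized read count was 1308 to 1649 in the 5 WT libraries and 96.9 to 154 in the 5 WKO libraries, and it fell by 3.61 on the log2 scale with the conditions averaged (SE 0.113, adjusted p = 1.0e-08 in limma). All 8 macrophage markers were detected in every group, with summed counts of 182565 to 213137 in WT and 245535 to 308509 in WKO. Markers of other cells differed too. The 10 neutrophil and progenitor markers, all with a mean of at least 10, summed to 6987 to 10876 in WT unconfined, 2568 to 7962 in WT confined, 25028 to 30172 in WKO unconfined and 7015 to 28214 in WKO confined libraries. The 12 stromal markers, 11 with a mean of at least 10, summed to 940 to 1875, 212 to 722, 2374 to 2684 and 869 to 9822 in the same order, with Lum at 0 in WT. The 5 dendritic cell markers, 3 with a mean of at least 10 and Xcr1 at 0 in every group, summed to 19.3 to 53.7 in WT and 65.9 to 157 in WKO libraries. The 6 B lineage markers, 4 with a mean of at least 10, summed to 25.7 to 200 in WT and 95.9 to 191 in WKO libraries. The 4 endothelial markers summed to 84.5 to 162 in WT and 93.9 to 209 in WKO. With the conditions averaged Pecam1 among them rose (log2 fold change 1.06, limma adjusted p = 0.0439). Cdh5 (0.73, limma adjusted p = 0.368) and Kdr (-0.36, limma adjusted p = 0.422) did not pass. The smallest averaged limma adjusted p was 0.0165 among the neutrophil and progenitor markers (S100a9) and 0.0102 among the stromal ones (Cxcl12). None of the 5 T and NK cell markers reached a mean of 10. These sums differ between the groups beside the results below, and their part in them was not tested. In bulk RNA, fewer cells of a type and less RNA per cell cannot be told apart.

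One library stood apart. WKO confined replicate 5 had the highest stromal sum (9822) and a neutrophil sum of 7015, below the other 4 WKO libraries at 21947 to 30172. It was also the lowest of all 10 libraries for 10 of the 17 glycolysis genes. Each count of members that passed is therefore given with and without it.

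Glycolysis transcripts were abundant and took a smaller share of reads in the WKO libraries. Per kilobase of exon, Gapdh had the highest mean level of the members over the 10 libraries (6519 normalized reads per kilobase), followed by Aldoa at 6398, Pkm at 5239, Pgk1 at 4827 and Ldha at 4593. Among the members, those that start and end the pathway were far less abundant, with 379 for Slc2a1, 207 for Hk1 and 189 for Slc16a3. This does not hold for every hexokinase gene. Hk3, outside the members and named after its values were seen, had a mean normalized read count of 10011, against 1767 for Hk1. Together the 17 genes took 1.15% and 1.02% of all reads in the WT unconfined libraries and 1.11%, 1.11% and 1.02% in the WT confined libraries. In WKO they took 0.919% and 0.843% unconfined, and 0.985%, 0.819% and 0.570% (replicates 1, 2 and 5) confined. Every WKO library lay below every WT library in this share, and no test was made of the sum.

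Slc2a1 (ENSMUSG00000028645, chr4:119108711-119137983 on GRCm38) brings glucose into the cell. Its normalized read count was 1731 and 1813 in WT unconfined, 1809, 1572 and 1706 in WT confined, 729 and 626 in WKO unconfined, and 1036, 972 and 1289 in WKO confined libraries. Each of the 5 WKO libraries was below the lowest WT library, and the WKO unconfined pair was the lowest. In unconfined cells Slc2a1 fell by 61.8% (log2 fold change -1.39, SE 0.154, adjusted p = 0.00305 in limma), the only member of 32 to pass, where 0.145% of all tested genes did (0.0963% lower and 0.0482% higher). Without WKO confined replicate 5 there were 2 such members, Slc2a1 and Slc16a3, while the number of all genes that passed went from 18 to 141. The call of Slc2a1 was lost without WT unconfined replicate 3 (log2 fold change -1.36, adjusted p = 0.0876) or WKO unconfined replicate 3 (log2 fold change -1.28, adjusted p = 0.0894). In confined cells the log2 fold change was -0.63 (SE 0.126, adjusted p = 0.0233 in limma), and this call was lost without any 1 of the 3 WT confined libraries or WKO confined replicate 2 (adjusted p up to 0.107).

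Slc16a3 (ENSMUSG00000025161, chr11:120948480-120960868 on GRCm38) carries lactate out of the cell at the other end of the pathway. It had normalized read counts of 1457 and 1024 in WT unconfined, 1511, 1380 and 1270 in WT confined, 736 and 475 in WKO unconfined, and 864, 704 and 609 in WKO confined libraries. The lowest WT library was above the highest WKO library. Its log2 fold change was -1.05 unconfined (SE 0.233, adjusted p = 0.116 in limma) and -0.94 confined (SE 0.191, adjusted p = 0.0255 in limma), the latter call being lost without any 1 WT confined library or WKO confined replicate 2 (adjusted p up to 0.107). Averaged over both conditions Slc16a3 fell by 49.8% (log2 fold change -0.995, SE 0.151, adjusted p = 0.00367 in limma) and Slc2a1 by 50.4% (log2 fold change -1.01, SE 0.0993, adjusted p = 0.000439 in limma). These averaged calls of both transporters held under all 18 alternatives, with adjusted p up to 0.032 for Slc16a3 and up to 0.00893 for Slc2a1.

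**Figure D1:**
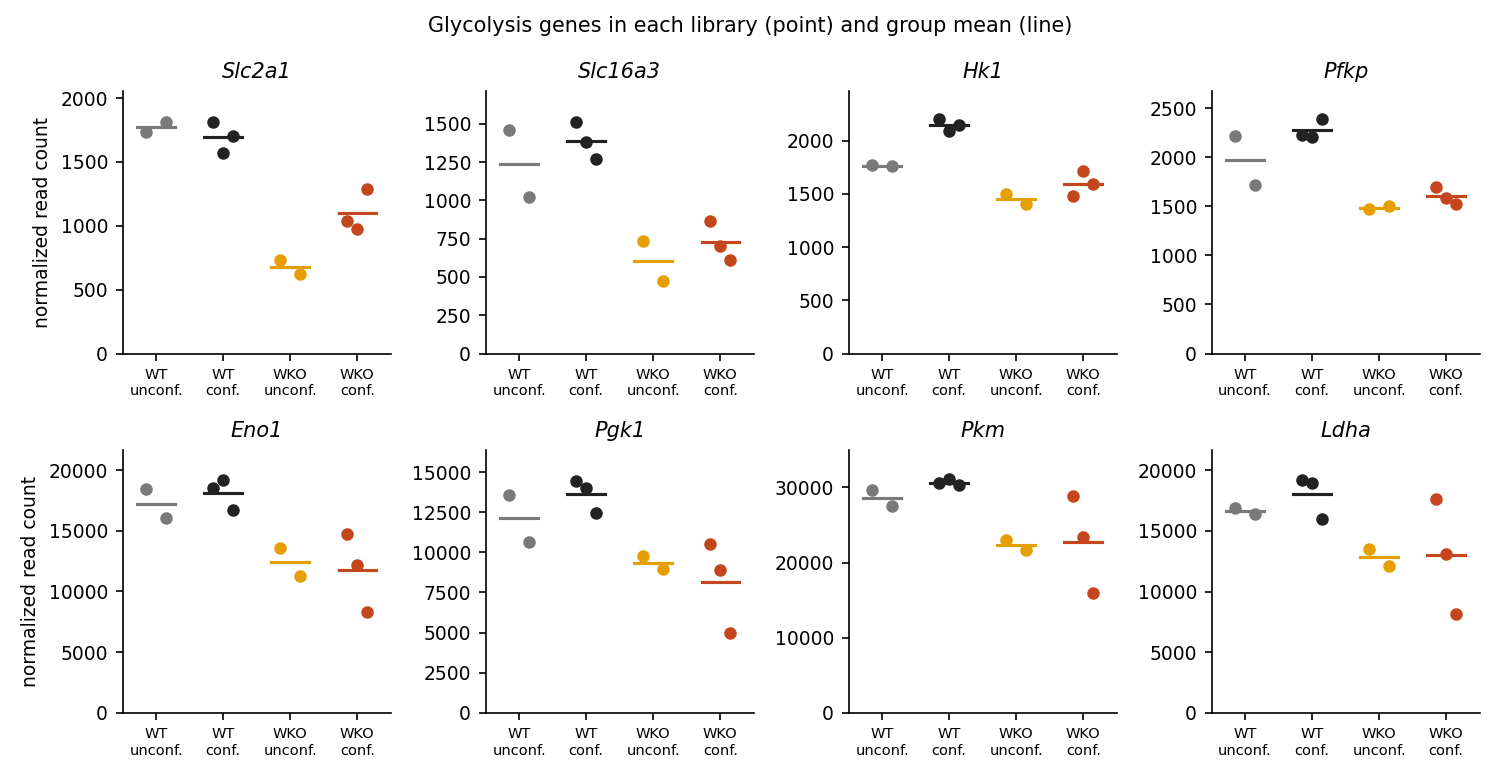
Normalized read count (vertical axis, linear, from 0) of 8 glycolysis genes in each library (points), with the group mean as a line; groups are WT and WKO, unconfined (unconf.) and confined (conf.). For Slc2a1, Slc16a3, Hk1, Pfkp, Eno1 and Pgk1 all 5 WKO points lie below all 5 WT points; for Pkm and Ldha WKO confined replicate 1 (28805 and 17658) reaches into the WT range.

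Early steps of the pathway followed. Hk1 (ENSMUSG00000037012, chr10:62268855-62379908), a hexokinase that traps glucose as glucose 6-phosphate, had normalized read counts of 1767 and 1763 in WT unconfined, 2207, 2088 and 2147 in WT confined, 1503 and 1404 in WKO unconfined, and 1483, 1717 and 1590 in WKO confined libraries. No WKO library reached the WT range. Hk1 fell by 25.7% in confined cells (log2 fold change -0.43, SE 0.0947, adjusted p = 0.037 in limma) and by 21.8% with the conditions averaged (log2 fold change -0.36, SE 0.0749, adjusted p = 0.0192 in limma). Hk2, a hexokinase isoform that HIF can induce, was at 766 and 751 in WT unconfined, 1102, 1134 and 948 in WT confined, 606 and 490 in WKO unconfined, and 734, 940 and 1198 in WKO confined libraries. Its genotype groups were apart in unconfined cells and overlapped in confined cells, and it passed in no comparison (averaged log2 fold change -0.32, limma adjusted p = 0.19).

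Pfkp (ENSMUSG00000021196, chr13:6579768-6648777), the platelet-type phosphofructokinase, had normalized read counts of 2219 and 1717 in WT unconfined, 2229, 2202 and 2390 in WT confined, 1472 and 1503 in WKO unconfined, and 1692, 1587 and 1527 in WKO confined libraries. Again no WKO library reached the WT range, although WT unconfined replicate 3 exceeded the highest of them by little. The log2 fold change was -0.51 in confined cells (SE 0.110, adjusted p = 0.0351 in limma) and -0.45 averaged (SE 0.0872, adjusted p = 0.0132 in limma). Pfkp shares 748 exon bases with Pitrm1 on the other strand, and since the use of strand in counting is not given in the sources used here its count is uncertain; Pitrm1 itself had an averaged log2 fold change of -0.05 (limma adjusted p = 0.765). Pfkl, the liver-type isoform, had log2 fold changes of -0.25 unconfined and -0.57 confined and passed in neither (limma adjusted p = 0.755 and 0.0861).

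Pfkfb3 and Pfkfb4 make and break down fructose 2,6-bisphosphate, the activator of phosphofructokinase. They were the only glycolysis members with an averaged log2 fold change above 0, at 0.14 (SE 0.143, adjusted p = 0.633 in limma) and 0.18 (SE 0.115, adjusted p = 0.433 in limma). Pfkfb4 was at 739 and 768 in WT unconfined, 658, 535 and 571 in WT confined, 847 and 835 in WKO unconfined, and 833, 585 and 616 in WKO confined libraries. Within each genotype every confined library was below every unconfined one, without passing the test (limma adjusted p = 0.398 in WT and 0.389 in WKO).

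The enzymes from aldolase to lactate dehydrogenase carry sugar phosphates to pyruvate and lactate, and all 8 measured here were on the lower side in WKO. Averaged log2 fold changes were -0.39 for Aldoa (aldolase), -0.41 for Tpi1 (triose phosphate isomerase), -0.37 for Gapdh, -0.59 for Pgk1, -0.48 for Pgam1 (phosphoglycerate mutase), -0.57 for Eno1 (enolase), -0.42 for Pkm (pyruvate kinase) and -0.46 for Ldha (lactate dehydrogenase). Of these 8 only Eno1 passed (SE 0.140, adjusted p = 0.036 in limma), and the other adjusted p values ran from 0.0516 for Pgam1 to 0.144 for Ldha. Gpi1, the isomerase above them, had -0.29 (limma adjusted p = 0.154).

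Eno1 (ENSMUSG00000063524, chr4:150236721-150248879) had normalized read counts of 18427 and 16042 in WT unconfined, 18510, 19165 and 16728 in WT confined, 13564 and 11262 in WKO unconfined, and 14744, 12205 and 8292 in WKO confined libraries. Pgk1 had 13564 and 10671, then 14439, 14005 and 12470, then 9755 and 8962, then 10534, 8911 and 4999 in the same order of groups. For both genes the highest WKO library was below the lowest WT library, and WKO confined replicate 5 was the lowest of the 10. For Pgk1 the gap between the genotypes was narrow, from 10534 (WKO confined replicate 1) to 10671 (WT unconfined replicate 3). Reads of Eno1 and Pgk1 could be shared with 3 and 4 other genes of near-identical sequence, whose summed mean counts were 0.350% and 0.0622% of the member's.

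The WKO confined libraries differed among themselves in the last steps as well. Ldha had 16901 and 16402 in WT unconfined, 19173, 18943 and 16025 in WT confined, 13519 and 12140 in WKO unconfined, and 17658, 13127 and 8155 in WKO confined libraries. The 3 WKO confined values thus covered a range of more than the whole WT range, with replicate 1 inside it. Over the 17 genes the spread, as the median over genes of the standard deviation of log2 values, was 0.305 among WKO confined libraries, against 0.141 in WT unconfined, 0.110 in WKO unconfined and 0.102 in WT confined libraries. Over all tested genes it was 0.265, 0.160, 0.123 and 0.151 in the same order, so WKO confined libraries spread most there too. For 13 of the 17 genes replicate 1 was the highest of the 3 WKO confined libraries, and for 12 replicate 5 was the lowest.

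**Figure D2:**
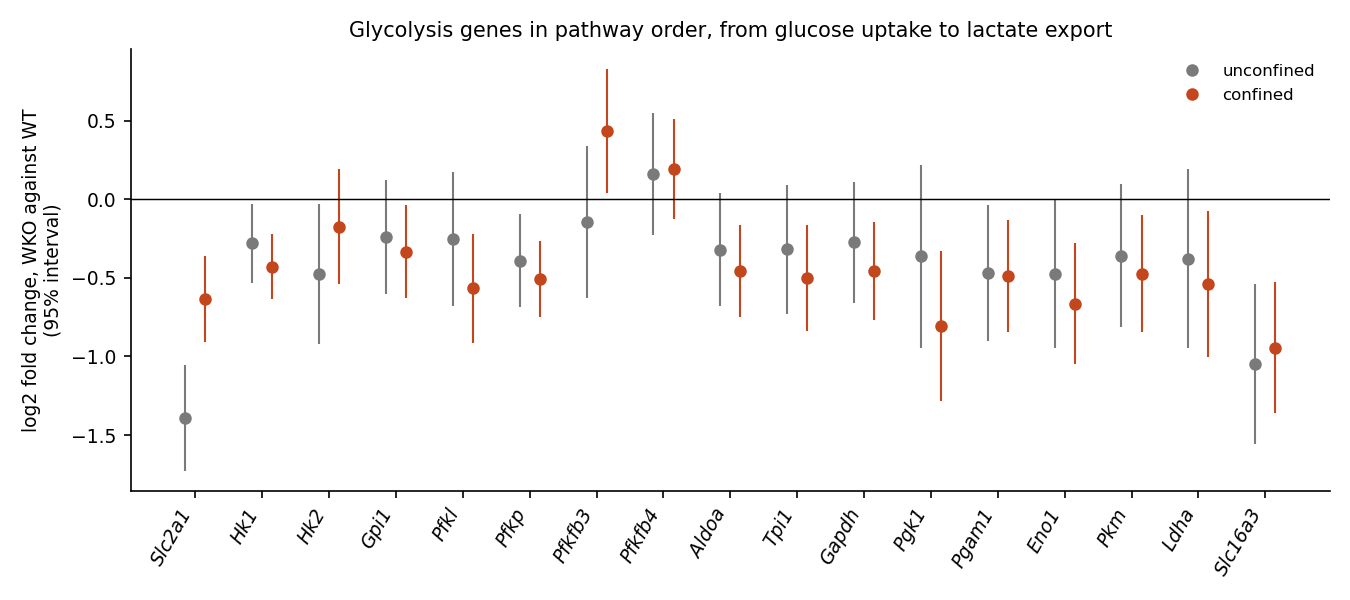
Log2 fold change of WKO against WT (vertical axis) with its 95% interval for the 17 glycolysis genes, from glucose uptake on the left to lactate export on the right, in unconfined (grey) and confined (orange) cells. Slc2a1 and Slc16a3 at the 2 ends have the lowest values in the unconfined comparison (-1.39 and -1.05), and Pfkfb3 in confined cells has the highest (0.43).

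Counted as a group, 16 of 17 glycolysis genes had a log2 fold change below 0 in unconfined cells (median -0.36) and 15 of 17 in confined cells (median -0.49), where 49.7% and 49.4% of all tested genes were below 0 with medians within 0.01 of 0. In confined cells 4 of the 17 fell (Slc2a1, Slc16a3, Pfkp and Hk1) and none rose, where 2.59% of all tested genes passed (1.2% lower and 1.38% higher in WKO). With the conditions averaged 5 of the 17 fell, the same 4 and Eno1, and none rose, where 5.57% of tested genes passed (2.67% lower and 2.9% higher). The highest of the 5 WKO libraries was below the lowest of the 5 WT libraries for 7 of the 17 (Slc2a1, Hk1, Pfkp, Aldoa, Pgk1, Eno1 and Slc16a3) and for 1 of the 15 other members, against 3.33% of all tested genes. The opposite order was found for no member, against 3.38% of tested genes. Within a condition, the WKO libraries were all below the WT libraries for 14 of the 17 in unconfined cells (22.7% of all tested genes) and for 12 of the 17 in confined cells (10.4%). They were all above for 1 of the 17 in each condition, Pfkfb4 and Pfkfb3 respectively (22.2% and 10.7% of tested genes). The confined and unconfined comparisons use different libraries, and the averaged one uses all of them. Since the members were chosen with earlier results of these data known, the all-gene shares are no independent yardstick for them.

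**Figure D3:**
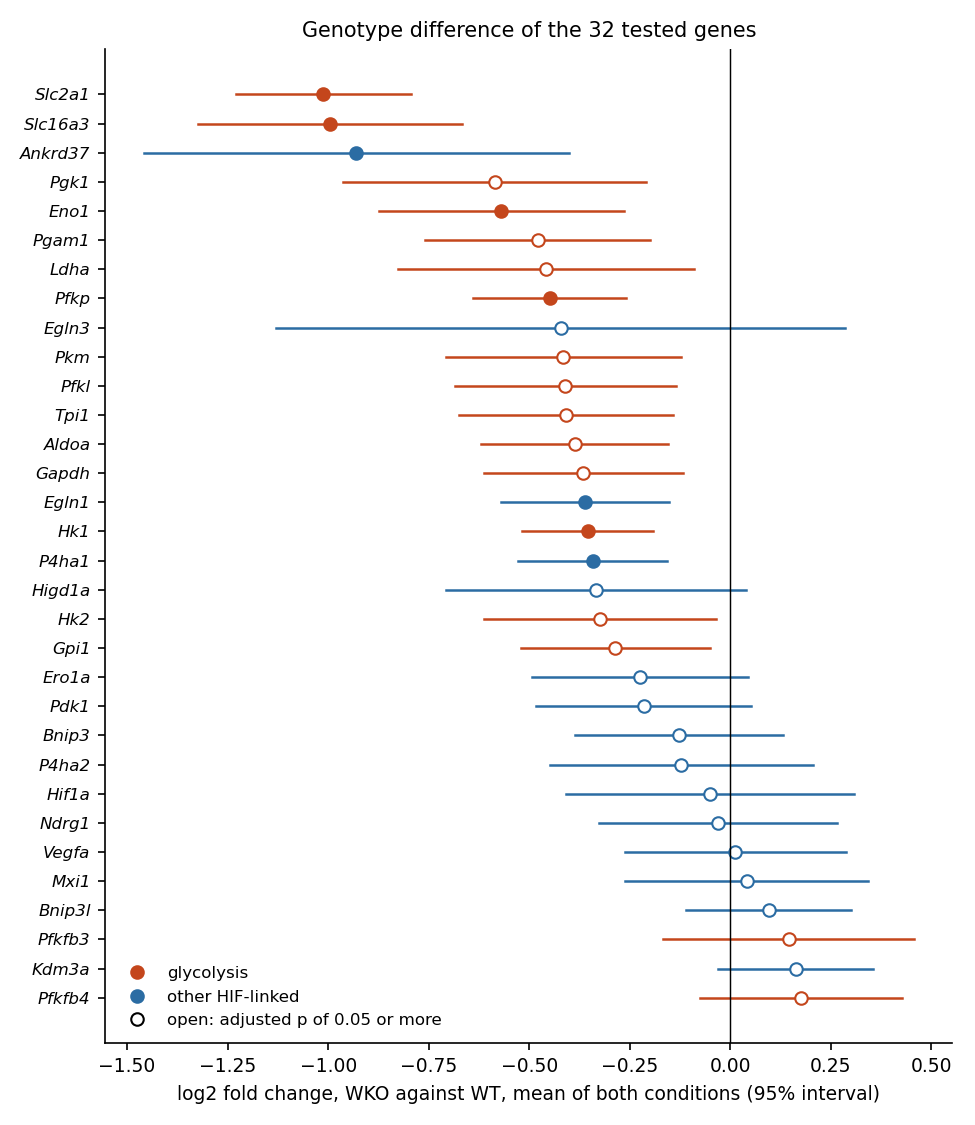
Log2 fold change of WKO against WT, averaged over both conditions (horizontal axis), with 95% intervals for the 32 tested members in order of size; filled points have a limma adjusted p under 0.05. The 8 filled points all lie below 0, from -1.01 for Slc2a1 to -0.34 for P4ha1, and 6 members lie above 0.

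These counts, and those over all genes, depended on single libraries. In the averaged comparison 8 of 32 members passed with all libraries, 17 without WKO confined replicate 1 and 14 without WKO confined replicate 5, the latter including Egln1, P4ha1 and Ero1a but not Ankrd37. There were 2 without WT unconfined replicate 1, WKO unconfined replicate 1 or WKO unconfined replicate 3, 3 without WT confined replicate 2, and 4 without WT unconfined replicate 3, WT confined replicate 3 or 6, or WKO confined replicate 2. Over all genes 694 passed in this comparison, 1115 without WKO confined replicate 1, 976 without replicate 5, and 169 to 574 without any 1 of the other 8 libraries. In confined cells 4 members passed with all libraries, 14 without WKO confined replicate 1, 5 without replicate 5 and 1 without replicate 2. None passed without any 1 of the WT confined libraries, and 2 did without either WKO unconfined library, in which Hk1 and Pfkp were lost. Hk1 was also lost in confined cells without either WT unconfined library, and Hk1 alone passed without WKO confined replicate 2. Over all genes the confined count was 322, and it became 701, 419 and 280 without WKO confined replicates 1, 5 and 2, 58, 80 and 141 without WT confined replicates 2, 3 and 6, and 192 and 193 without WKO unconfined replicates 1 and 3. Every member that passed in these fits was lower in WKO.

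Among the other HIF-linked genes, 3 of 15 fell with the conditions averaged: P4ha1, Egln1 and Ankrd37. None rose. Over all tested genes 2.67% fell and 2.9% rose. The group had a median log2 fold change of -0.28 in unconfined cells (13 of 15 below 0) and -0.16 in confined cells (9 of 15 below 0). None of the 15 passed in limma in either condition alone, where 0.145% and 2.59% of all tested genes did. At an unadjusted limma p under 0.05 there were 1 and 6 of the 15, against 1196 and 2087 of the 12455 tested genes. In DESeq2 0 and 2 passed (Ankrd37 and Egln1 in confined cells), against 183 and 778 of all genes. Whether the glycolysis genes and these genes differ from each other was not tested.

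P4ha1 (ENSMUSG00000019916, chr10:59323296-59373304) had normalized read counts of 1917 and 1682 in WT unconfined, 1830, 1881 and 1972 in WT confined, 1397 and 1351 in WKO unconfined, and 1415, 1484 and 1737 in WKO confined libraries. Only WKO confined replicate 5 reached into the WT range. P4ha1 fell by 21.1% (averaged log2 fold change -0.34, SE 0.0846, adjusted p = 0.0383 in limma). Its isoform P4ha2 was at 180 and 188 in WT unconfined and 144 and 135 in WKO unconfined libraries. In confined cells the genotypes overlapped, at 225, 190 and 170 in WT and 206, 179 and 272 in WKO libraries. The averaged log2 fold change of P4ha2 was -0.12 (limma adjusted p = 0.716).

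Egln1 (ENSMUSG00000031987, chr8:124908587-124949324), the main prolyl hydroxylase that marks HIF-1α, had 611 and 683 in WT unconfined, 679, 809 and 717 in WT confined, 565 and 502 in WKO unconfined, and 504, 551 and 566 in WKO confined libraries. The 5 WKO libraries all lay under the lowest WT library. The averaged log2 fold change was -0.36 (SE 0.0956, adjusted p = 0.0498 in limma), close to the threshold. Egln3, a hydroxylase that HIF induces, was low at 15.7 to 45.6 in all libraries and gave a wide interval (averaged log2 fold change -0.42, 95% interval -1.13 to 0.29).

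Ankrd37 (ENSMUSG00000050914, chr8:45996902-46005707), an ankyrin repeat gene known as a HIF-1 target, was on the lower side in WKO and in confined cells. Its normalized read counts were 91.2 and 85.4 in WT unconfined, 51.4, 42.2 and 44.2 in WT confined, 65.1 and 46.5 in WKO unconfined, and 26.7, 17.9 and 15.6 in WKO confined libraries. The 4 groups did not overlap except for WT confined and WKO unconfined. It fell by 47.5% in WKO with the conditions averaged (log2 fold change -0.93, SE 0.242, adjusted p = 0.0461 in limma), and the confined libraries were lower in both genotypes without passing (log2 fold change -0.93 in WT and -1.45 in WKO, limma adjusted p = 0.282 and 0.0618). Ankrd37 shares 57 exon bases with Ufsp2 on the other strand, a gene with a mean of 719, so its low count is uncertain; Ufsp2 had an averaged log2 fold change of -0.0048 (limma adjusted p = 0.991).

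The averaged calls of these genes were not stable. Those of P4ha1, Egln1, Ankrd37 and Eno1 were lost without any 1 WT library, either WKO unconfined library or WKO confined replicate 2, and that of Ankrd37 also without WKO confined replicate 5. Over all alternatives the adjusted p reached 0.169 for P4ha1, 0.227 for Egln1, 0.216 for Ankrd37 and 0.188 for Eno1. Those of Hk1 and Pfkp were lost without WT unconfined replicate 1, WKO unconfined replicate 1 or WKO unconfined replicate 3, and that of Hk1 also without WT unconfined replicate 3 or WT confined replicate 2 (adjusted p up to 0.117 for Hk1 and 0.0707 for Pfkp). All kept their direction.

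The other HIF-linked members did not pass between the genotypes. Hif1a, the oxygen-regulated subunit itself, was at 1797 and 1559.5 in WT unconfined, 2333, 2146 and 2045 in WT confined, 1509.5 and 1543 in WKO unconfined, and 1583, 2073 and 3343 in WKO confined libraries. WKO confined replicate 5 held the highest value of the 10, the ranges of the genotypes overlapped, and the averaged log2 fold change was -0.05 (SE 0.164, adjusted p = 0.915 in limma). Pdk1, which restrains entry of pyruvate into mitochondria, had -0.22 averaged (limma adjusted p = 0.357). The mitophagy receptors Bnip3 and Bnip3l had -0.13 and 0.10, the stress-linked Ndrg1 -0.03, the endoplasmic reticulum oxidase Ero1a -0.22, the mitochondrial protein gene Higd1a -0.33, the histone demethylase Kdm3a 0.16 and the MYC antagonist Mxi1 0.04, with limma adjusted p from 0.304 to 0.935.

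**Figure D4:**
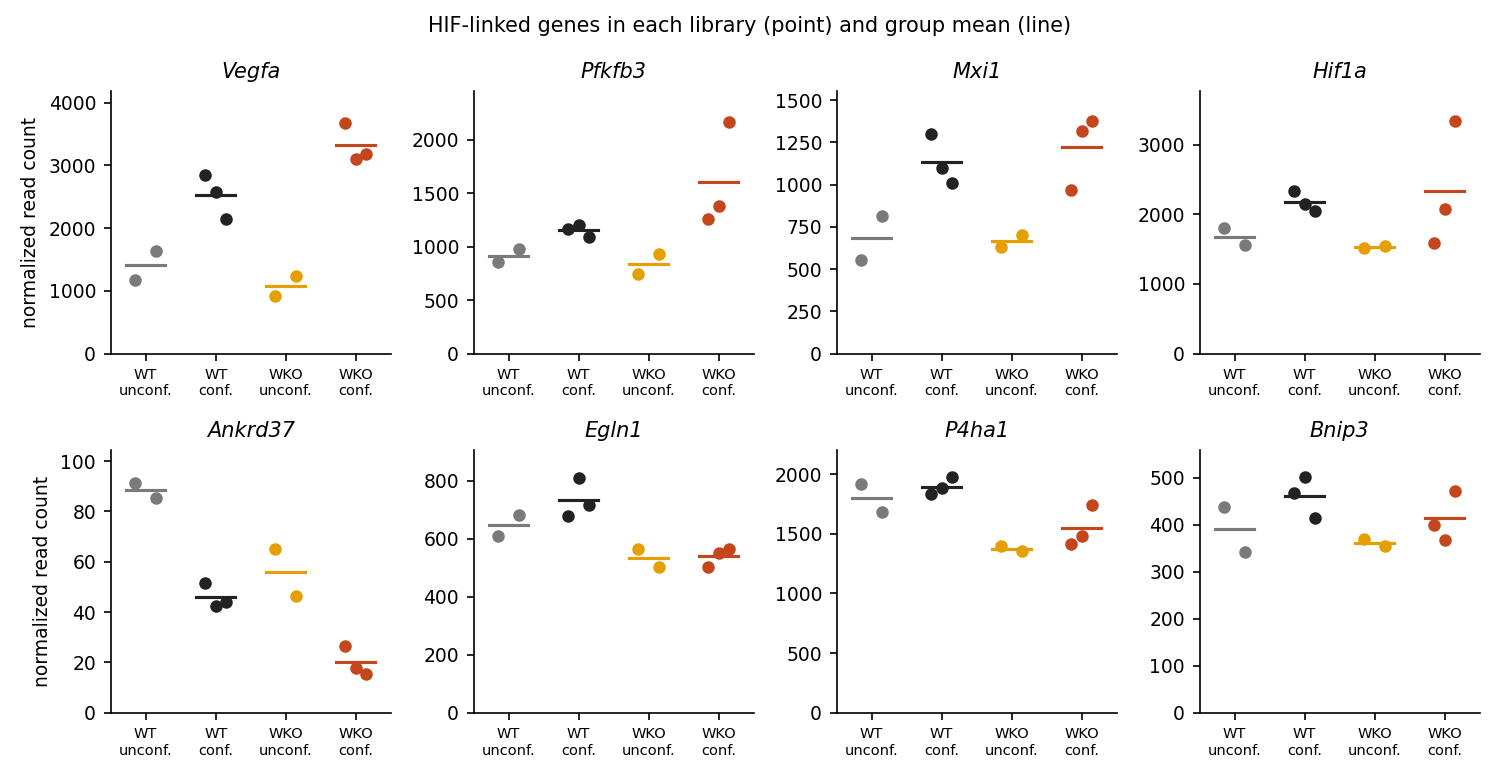
Normalized read count (vertical axis, linear, from 0) of 8 HIF-linked genes, Pfkfb3 among them, in each library (points), with the group mean as a line. Vegfa is higher in all confined libraries (2152 to 3677) than in all unconfined ones (922 to 1634), Ankrd37 is lowest in WKO confined libraries (15.6 to 26.7), and Hif1a and Pfkfb3 have their highest value in WKO confined replicate 5.

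Few members passed between confined and unconfined cells, Vegfa with the largest rise in both genotypes. Vegfa (ENSMUSG00000023951, chr17:46016993-46032369), a secreted growth factor for blood vessels, had 1178 and 1634 in WT unconfined, 2856, 2569 and 2152 in WT confined, 922 and 1237 in WKO unconfined, and 3677, 3111 and 3188 in WKO confined libraries. In both genotypes every confined library was above every unconfined one, and the 3 WKO confined libraries were the highest of the 10. Vegfa rose 1.81-fold in WT (log2 fold change 0.85, SE 0.177, adjusted p = 0.0427 in limma), the only member of 32 to pass there, where 1.16% of all tested genes passed (0.891% higher and 0.265% lower in confined cells). In WKO it rose 3.10-fold (log2 fold change 1.63, SE 0.177, adjusted p = 0.000908 in limma).

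The rise of Vegfa in WKO held under all 19 alternatives (adjusted p up to 0.0265). In WT the call was lost without any 1 of the 5 WT libraries or WKO confined replicate 2 (adjusted p up to 0.331 over the alternatives). The difference between the genotypes in this rise was 0.78 on the log2 scale (SE 0.251, limma adjusted p = 0.999), so it did not pass. Without WKO confined replicate 1 or replicate 5, Mxi1 passed beside Vegfa in WT, and the number of all genes that passed went from 144 to 330 and 397.

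In WKO cells 3 of 32 members passed, all higher in confined cells (Vegfa, Slc2a1 and Pfkfb3), where 1.72% of all tested genes passed (1.49% higher and 0.233% lower). Slc2a1 rose 1.61-fold (log2 fold change 0.69, SE 0.140, adjusted p = 0.0314 in limma), yet the confined WKO values stayed below the WT values given above. In WT its log2 fold change was -0.07 (SE 0.140), and the difference between genotypes was 0.76 (SE 0.199, limma adjusted p = 0.999). The WKO unconfined libraries enter both this comparison and the genotype comparison in unconfined cells, so the 2 results share them.

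Pfkfb3 (ENSMUSG00000026773, chr2:11471433-11554077) was at 856 and 977 in WT unconfined, 1162, 1205 and 1094 in WT confined, 740 and 927 in WKO unconfined, and 1259, 1381 and 2166 in WKO confined libraries. Confined libraries were above unconfined ones in both genotypes, and WKO confined replicate 5 was far above the rest. It rose 1.88-fold in WKO (log2 fold change 0.91, SE 0.202, adjusted p = 0.0467 in limma) and had 0.33 in WT (SE 0.202, adjusted p = 0.56 in limma), with a difference of 0.58 that did not pass (SE 0.285, limma adjusted p = 0.999).

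Without WKO confined replicate 5 the same count of 3 members passed in WKO, again Vegfa, Slc2a1 and Pfkfb3. Without replicate 1 there were 8: Hif1a, Hk2, Mxi1, Pfkfb3, Slc2a1 and Vegfa higher, and Ankrd37 and Pfkfb4 lower. The number of all genes that passed went from 214 to 1043 in that fit (818 higher and 225 lower), and to 240 without replicate 5. Without replicate 2 there were 2 (Slc2a1 and Vegfa), and likewise 2 (Mxi1 and Vegfa) without either WT unconfined library. Vegfa alone passed without any 1 of the WT confined or WKO unconfined libraries. Over all genes 43 to 194 passed in these fits.

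Mxi1 was at 551 and 813 in WT unconfined, 1298, 1100 and 1008 in WT confined, 629 and 699 in WKO unconfined, and 970, 1315 and 1374 in WKO confined libraries. Its confined libraries were above the unconfined ones in both genotypes, with log2 fold changes of 0.75 in WT (limma adjusted p = 0.113) and 0.86 in WKO (limma adjusted p = 0.051). Hk2 had 0.48 in WT (limma adjusted p = 0.316) and 0.78 in WKO (limma adjusted p = 0.0649), and Hif1a 0.37 and 0.54 (limma adjusted p = 0.568 and 0.322). The 17 glycolysis genes had a median log2 fold change of 0.10 in WT and -0.02 in WKO, and the 15 other members 0.18 and 0.17. All confined libraries were above all unconfined ones for 8 of 32 members in WT (18.3% of all tested genes) and 11 in WKO (14.5%), and below them for 2 in each (17.7% and 13.8%). No member passed the interaction of genotype and confinement, nor did any of the 12455 genes (0% called) in limma, in edgeR's quasi-likelihood test or in DESeq2. At an unadjusted limma p under 0.05 there were 258 genes, of which 2 were members (Slc2a1 and Vegfa).

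**Figure D5:**
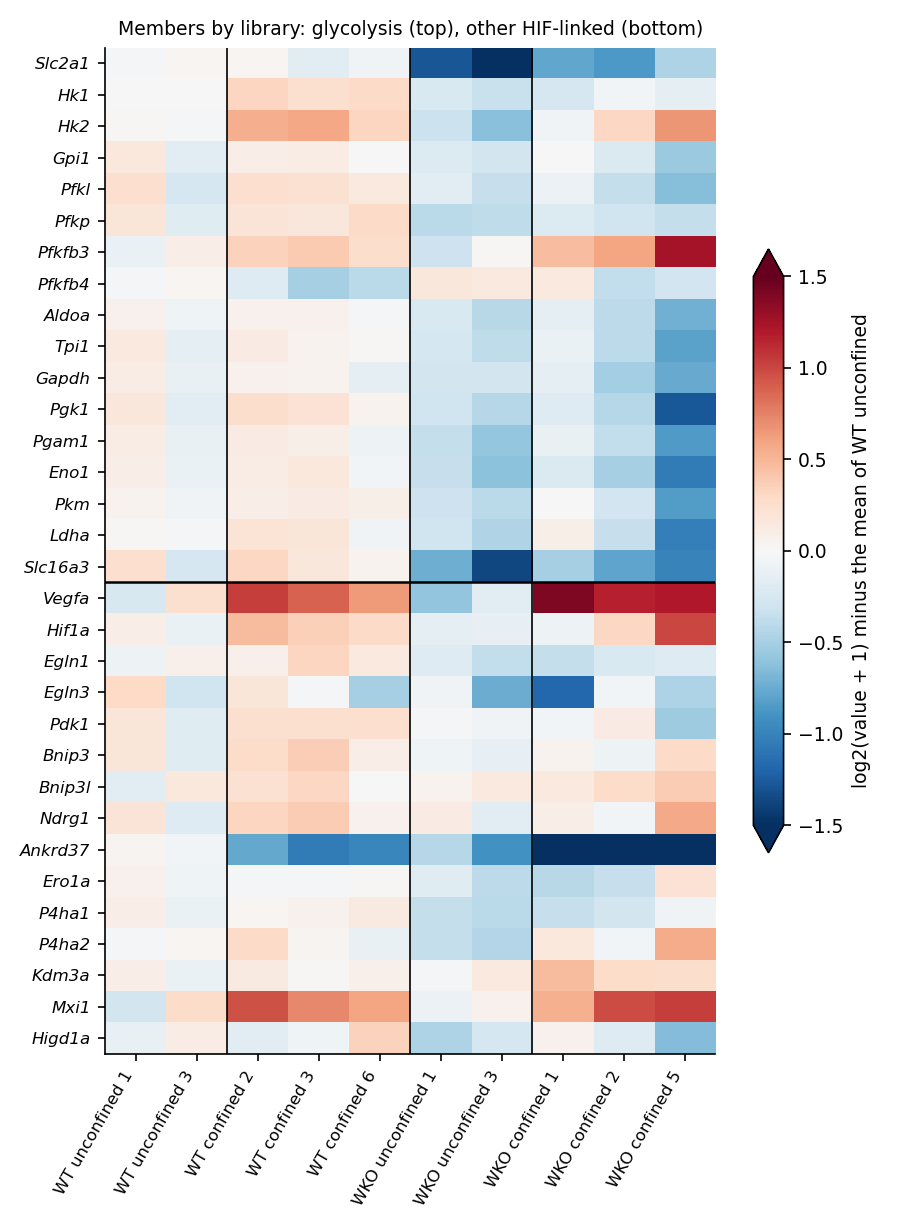
Colour shows log2(normalized read count + 1) of each member (rows) in each library (columns) minus its mean in the 2 WT unconfined libraries, on a scale that ends at -1.5 and 1.5, with 4 values beyond it. Glycolysis genes above the line are mostly blue in the 5 WKO columns, with WKO confined replicate 5 the darkest for most enzymes, and Vegfa and Mxi1 below it are red in all 6 confined columns.

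Further genes of the same pathways were counted from lists. Of 31 tested further glycolysis and pyruvate genes, 3 passed with the conditions averaged, where 5.57% of all tested genes did. Eno2, the neuronal enolase, fell from 338 and 352 in WT unconfined to 172 and 180 in WKO unconfined libraries, and ranged from 291 to 399 in WT confined and 226 to 324 in WKO confined libraries (averaged log2 fold change -0.67, SE 0.138, adjusted p = 0.0171 in limma). Pygl, liver glycogen phosphorylase, rose (0.43, limma adjusted p = 0.0285), from 1277 to 1717 over the WT libraries to 1899 to 2377 over the WKO libraries. Pdk4 also rose (limma adjusted p = 0.0306), but at 0 to 10.6 in WT and 9.41 to 28.9 in WKO its counts were near the floor. None of the 31 passed in limma in unconfined or confined cells alone, or with confinement in WT or WKO. Over all tested genes 0.145%, 2.59%, 1.16% and 1.72% passed in these comparisons. An unadjusted limma p under 0.05 was found for 5, 7, 1 and 4 of the 31, against 1196, 2087, 1523 and 1758 of the 12455 tested genes.

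Of 25 tested further HIF-linked targets, 4 passed with the conditions averaged, where 5.57% of all tested genes did. Ak4, a mitochondrial adenylate kinase, had 170 and 96.0 in WT unconfined, 227, 219 and 151 in WT confined, 49.3 and 36.1 in WKO unconfined, and 32.2, 47.4 and 57.5 in WKO confined libraries. No WKO library reached the lowest WT library, and Ak4 fell by 1.85 on the log2 scale (SE 0.241, adjusted p = 0.00153 in limma). Mif, the macrophage migration inhibitory factor, fell by 0.67 on the same scale (limma adjusted p = 0.0242) and the transcriptional repressor Bhlhe41 by 0.44 (limma adjusted p = 0.0307), while Selenbp1, a selenium-binding protein gene, rose by 0.64 (limma adjusted p = 0.0192).

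With confinement Bhlhe40, a repressor related to Bhlhe41, rose in both genotypes. It had 873 and 1275 in WT unconfined, 2310, 2471 and 2413 in WT confined, 624 and 998 in WKO unconfined, and 2482, 2628 and 2390 in WKO confined libraries. The log2 fold changes were 1.18 in WT (limma adjusted p = 0.0121) and 1.66 in WKO (limma adjusted p = 0.0012). In WT the chemokine receptor gene Cxcr4 (1.91, limma adjusted p = 0.0235) and the heme oxygenase gene Hmox1 (0.50, limma adjusted p = 0.0467) rose too, Hmox1 being named after its values were seen, and in WKO Bhlhe41 rose (0.75, limma adjusted p = 0.0275). Thus 3 of the 25 passed with confinement in WT and 2 in WKO, where 1.16% and 1.72% of all tested genes did. In confined cells 2 of the 25 passed between genotypes, Ak4 (-2.12, limma adjusted p = 0.00673) and Selenbp1 (0.74, limma adjusted p = 0.0463). The share over all tested genes was 2.59% there.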

How the data were processed

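RNA was sequenced in 10 libraries of 4 groups taken from the genotype and treatment labels. Normalized read counts, a signal for each gene and library, were deposited as 1 table. Per the submitters' processing notes, FastQC, Trim Galore, STAR and the builds GRCm38 and mm10 were used; the annotation, counting tool and use of strand are not given in the sources used here. Of the deposited values, 100% were whole multiples of the value of 1 read in that library (tolerance 1e-06), and size factors recomputed with DESeq2 1.42.0 matched, so each library's reads were divided by a single factor. This leaves differences in composition, GC content and length.

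Values were tested as log2(value + 1) with limma 3.58.1 in R 4.3.3, with 1 mean per group, all 10 libraries in 1 fit (6 residual degrees of freedom), empirical Bayes with a mean-variance trend, and Benjamini-Hochberg adjustment over the 12455 genes with a mean of at least 10 (threshold 0.05). Fold changes are on that log2 scale and understate the change of low genes. The interaction subtracts the WT confinement effect from the WKO one, and the averaged comparison is the mean of the 2 genotype effects. The count test on the recovered reads, edgeR 4.0.16 (quasi-likelihood), called 15, 319, 696, 116, 186 and 0 genes for genotype unconfined, confined and averaged, confinement in WT and in WKO, and interaction; limma called 18, 322, 694, 144, 214 and 0. Other alternatives were pseudocount 5, no filter, TMM and upper-quartile scaling, DESeq2, no trend, only the groups compared, a replicate block and leaving out each library. The scripts were tested on simulated data.

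The members and the gene lists were chosen with earlier results of these data known. Every member may be named. From the other lists, genes past the threshold are named, at most 6 a list by smallest adjusted p, or else the gene with the smallest p. Hk3 is an exception to this rule. Gene positions, exon overlaps and lengths are from GENCODE M21 (GRCm38), which lacks 4929 of the 57010 identifiers, 138 of them tested; all 33 members matched. Of the members, 14 overlap an exon of another gene, and 10 share sequence (blastn 2.17.0, at least 95% identity over stretches of at least 100 bases and 20% of the transcript) with genes whose summed counts are at most 0.829% of the member's. Floors and p-values cover neither PCR duplication nor, where replicates are not independent, biological spread. Replicate libraries all differed by more than sampling noise (chi-square per degree of freedom 7.56 to 78.3).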

Additional observations from a re-analysis of the deposited data

How the results depend on the processing

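Over the 17 member results that passed and their 315 alternatives, 188 kept direction and call, 127 kept direction and lost the call, and 0 reversed. The number of members that passed (1 unconfined, 4 confined, 8 averaged, 1 with confinement in WT, 3 in WKO) became 2, 10, 15, 2 and 6 in DESeq2 and 0, 0, 3, 0 and 1 without the mean-variance trend. With no filter it was 1 in confined cells, 4 averaged and 0 with confinement in WT. With upper-quartile scaling it was 5 averaged, 0 with confinement in WT and 1 in WKO; this scaling moved the median of all genes by -0.08 in WT and -0.12 in WKO confinement, and the share of calls that were higher from 77.1% to 63.6% and from 86.4% to 75.4%. edgeR gave 0 with confinement in WT. With only the groups compared there was 1 in confined cells and 1 with confinement in WKO. The cause of these shifts was not tested. Leaving out 1 library gave 0 to 2 members unconfined, 0 to 14 confined, 2 to 17 averaged, 0 to 2 with confinement in WT and 1 to 8 in WKO, and over all genes 4 to 141, 58 to 701, 169 to 1115, 22 to 397 and 43 to 1043; where a group keeps 1 library, it is assumed to vary like the others.

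Same-numbered libraries showed little joint deviation from their group means (correlations of -0.11 to 0.0764). In a group of 2 libraries the deviations mirror each other, so these correlations cannot decide whether the numbers pair the samples. Adding the replicate number to the model as a replicate block (2 residual degrees of freedom) gave 2 members unconfined and 13 averaged, and 4, 1 and 2 in the other comparisons. The 4 in confined cells were Eno1, Pgk1, Slc16a3 and Slc2a1, without Hk1 and Pfkp; Hk1, Egln1 and Ankrd37 did not pass averaged, nor Slc2a1 with confinement in WKO. All-gene counts of calls under it were 245, 294, 799, 216 and 222. DESeq2 called 183, 778, 1150, 332 and 485 genes, no filter 10, 186, 438, 97 and 204, and no trend 4, 53, 360, 20 and 45; with only the groups compared the counts were 189, 90, 455 and 33, no averaged comparison being possible. Depth limits Egln3, Ankrd37 and Adm, whose counts were low.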

Other observations

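Adm, the member left untested, was at 0.950 and 3.84 in WT unconfined, 5.36, 7.04 and 8.03 in WT confined, 2.96 and 9.29 in WKO unconfined, and 13.3, 10.5 and 24.0 in WKO confined libraries. Its 3 highest values were those of the WKO confined libraries, at counts near the floor of 3 reads.

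Neighbouring pathways gave few calls. Of 8 genes of the pentose phosphate pathway, which draws off glucose 6-phosphate, none passed in limma in any comparison. An unadjusted limma p under 0.05 was found for 0 to 1 per comparison, against 258 to 2510 of the 12455 tested genes. The smallest p was that of Tkt, transketolase (averaged log2 fold change -0.27, limma adjusted p = 0.132). Of 18 tested subunits and regulators of HIF, 1 passed: Hsp90aa1, a chaperone, rose with confinement in WKO from 4163 and 3817 to 5492, 5971 and 6396 (log2 fold change 0.58, limma adjusted p = 0.0453). In that comparison 1.72% of all tested genes passed. In WT, Hsp90aa1 was at 5248 and 4672 unconfined and 6175, 6010 and 7604 confined. Its confined libraries were thus above the unconfined ones there too, without passing in limma.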
